A study of Macaca mulatta with 51 samples.

Results

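The enzymes that hydroxylate and crosslink collagen were followed in subcutaneous abdominal adipose tissue (AT) and gastrocnemius skeletal muscle (SM) of diet-induced obese (DIO) rhesus macaques before, during and after treatment with fibroblast growth factor 21 (FGF21). They were chosen by symbol from the deposited gene counts and comprise 10 of 16033 genes: 5 lysyl oxidases, 3 lysyl hydroxylases and 2 catalytic subunits of prolyl 4-hydroxylase. They are LOX (ENSG00000113083), LOXL1 (ENSG00000129038), LOXL2 (ENSG00000134013), LOXL3 (ENSG00000115318), LOXL4 (ENSG00000138131), PLOD1 (ENSG00000083444), PLOD2 (ENSG00000152952), PLOD3 (ENSG00000106397), P4HA1 (ENSG00000122884) and P4HA2 (ENSG00000072682), given by the human identifiers of the count table. All 10 passed the filter on low counts in both tissues. The animals were 10 obese, non-diabetic macaques aged 11 to 22 years, 5 males and 5 ovariectomized females, fed a high-fat diet over 2 years or more. Each received native human FGF21 by daily subcutaneous injection for 12 weeks, with the dose raised from 10 to 1000 ug/kg/day in the course of 6 weeks, after which 9 animals were held at the highest dose and 1 at 300 ug/kg/day. Biopsies were taken pre-treatment, at the end of the 12 weeks (post-treatment) and 16 weeks after the last dose (washout). Every group was therefore drawn from the same treated animals, the pre-treatment biopsies served as the controls, and time in the study, treatment and weight change cannot be told apart.

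Newly made collagen chains are modified in the endoplasmic reticulum before they leave the cell. Prolyl 4-hydroxylase, whose alpha subunit is encoded by P4HA1 or P4HA2 and whose beta subunit is P4HB, hydroxylates the prolines that let the triple helix stay folded at body temperature. The lysyl hydroxylases PLOD1, PLOD2 and PLOD3 hydroxylate lysines, and all of these hydroxylases need iron, oxygen and 2-oxoglutarate. Outside the cell, the copper-dependent amine oxidases LOX and LOXL1 to LOXL4 turn lysines and hydroxylysines into aldehydes, from which the covalent crosslinks of collagen and elastin form. In obese AT, crosslinked collagen around adipocytes is a feature of fibrosis.

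There were 10 AT libraries from before treatment, 9 from its end and 8 from washout, and 6, 8 and 7 SM libraries. Total counts per library ranged from 14455195 to 23940980, and the counts of single members from 279 to 10356 in AT and from 32 to 3104 in SM. Levels are given as CPM, a library's counts scaled to a common total, after TMM normalization within each tissue, and no level is set against that of another gene. Differential expression (DE) was called where the adjusted p was below 0.05 and the log2 fold change above 0.26 or below -0.26. The marker genes ADIPOQ and PLIN1 had medians of 2529 and 1932 CPM over the AT libraries, and the muscle actin ACTA1 had a median of 32420 CPM over the SM libraries. The SM libraries of 4 animals stood apart post-treatment in collagen and connective tissue RNA and are described with the SM results. As these are bulk biopsies, fewer cells that express a gene and less RNA per cell cannot be told apart.

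The plainest change in AT was in LOXL2, a lysyl oxidase known to crosslink collagen IV of basement membranes. Its level ranged from 59.2 to 131.4 CPM pre-treatment (median 96.5), from 23.2 to 88.2 CPM post-treatment (median 45.9) and from 84.7 to 161.6 CPM at washout (median 96.5). The pre- and post-treatment groups overlapped, but 7 of the 9 post-treatment libraries lay below every pre-treatment library. All 9 animals with both biopsies were lower post-treatment, and the fitted fall was 1.95-fold (log2 fold change -0.96 ± 0.15 SE, adjusted p = 0.00127, edgeR quasi-likelihood test). Animal 20275 changed least, by -0.10 on the log2 scale, and animal 21189 most, by -2.02. By p-value LOXL2 stood at rank 43 of the 13367 genes tested in AT.

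**Figure D1:**
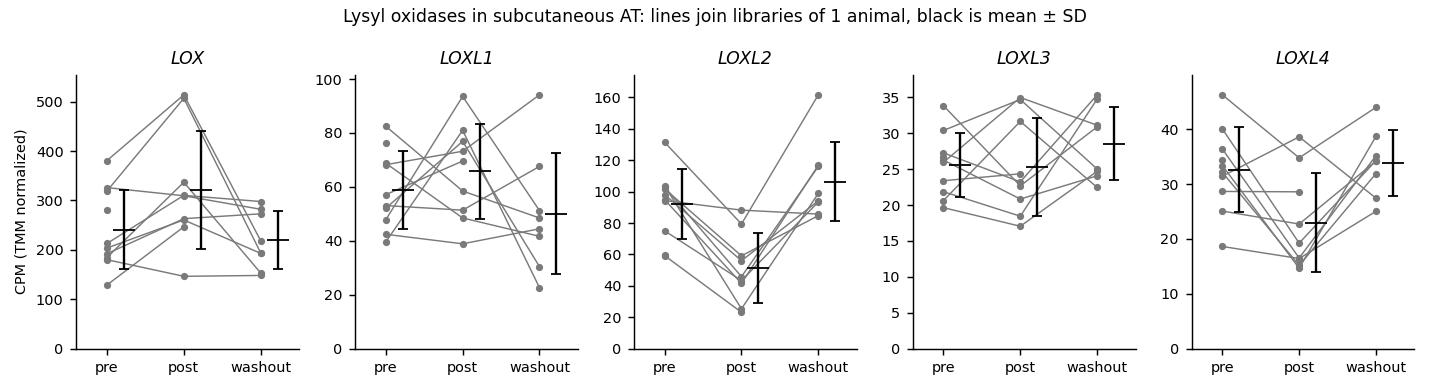
CPM (y axes, from 0) of the 5 lysyl oxidases in each AT library pre-treatment, post-treatment and at washout (x axes). Each line joins the libraries of 1 animal and the black bars are the mean ± SD of each group. LOXL2 fell in all 9 animals post-treatment, from a mean of 92.1 to 51.4 CPM, and was back at 106.4 CPM at washout.

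Post-treatment, 3 of the 10 members were called lower and 0 higher, where 15.5% of all genes tested were called (8.49% lower and 6.98% higher). Besides LOXL2 these were LOXL4 and PLOD2. The median log2 fold change was -0.08 over the members and 0.03 over all genes tested.

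LOXL4, another amine oxidase of the family, measured 18.6 to 46.2 CPM pre-treatment (median 32.8) and 14.7 to 38.6 CPM post-treatment (median 19.2). Its groups overlapped, with 4 of the post-treatment libraries below the pre-treatment range. It was lower in 8 of 9 animals, animal 23004 being the exception, and the fitted log2 fold change was -0.52 ± 0.16 (adjusted p = 0.0319, edgeR quasi-likelihood test). The changes fell into separate sizes: animals 20275, 21189, 22130 and 26292 fell by 1.05 to 1.18 on the log2 scale, and the other 5 lay between -0.41 and 0.30. Leaving out any one of those 4 animals put LOXL4 above the threshold (adjusted p = 0.0758 to 0.0949), as did leaving out the pre-treatment library of animal 20275 (0.0678), a model without the animals (0.0611) and a fit of the 2 time points alone (0.0568).

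PLOD2 hydroxylates lysines in the telopeptides, the ends of the collagen molecule from which pyridinoline crosslinks are built. Its AT level ranged from 80.9 to 208.6 CPM pre-treatment (median 155.5) and from 54.2 to 145.3 CPM post-treatment (median 86.7). The groups overlapped, and 4 post-treatment libraries were below the lowest pre-treatment library. PLOD2 was lower in 8 of 9 animals and higher in animal 20456, which had the lowest pre-treatment level, and the fitted log2 fold change was -0.65 ± 0.18 (adjusted p = 0.0224, edgeR quasi-likelihood test). Without animal 20275, which fell by 1.57 on the log2 scale, the adjusted p was 0.0649, without animal 22130 it was 0.0762, and without the pre-treatment library of animal 20275 alone it was 0.0507.

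LOX, the founding member of the family, which acts on fibrillar collagens and elastin, pointed the other way in AT without passing the threshold. It measured 129.0 to 380.7 CPM pre-treatment (median 208.4) and 146.6 to 513.7 CPM post-treatment (median 309.5), and it was higher in 7 of 9 animals. The fitted log2 fold change was 0.44 ± 0.16 (adjusted p = 0.0566), and LOX was called under 4 alternative fits and without animal 24849 (adjusted p = 0.0344 to 0.0485). The other 6 members were not called. LOXL1, which is directed to elastic fibres, had a log2 fold change of 0.23 ± 0.20, and LOXL3 of -0.02 ± 0.13. PLOD1 and PLOD3, which act mainly on helical lysines, had values of -0.20 ± 0.08 and -0.15 ± 0.11, with PLOD1 lower in 8 of 9 animals (adjusted p = 0.0813). P4HA1 was at 0.08 ± 0.09 and P4HA2 at 0.22 ± 0.12. Their levels over the 3 time points ranged from 22.7 to 94.1 CPM for LOXL1, 17.1 to 35.3 CPM for LOXL3, 119.7 to 207.9 CPM for PLOD1, 42.3 to 83.9 CPM for P4HA1 and 32.5 to 64.6 CPM for P4HA2, with all 3 groups of each gene overlapping.

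**Figure D2:**
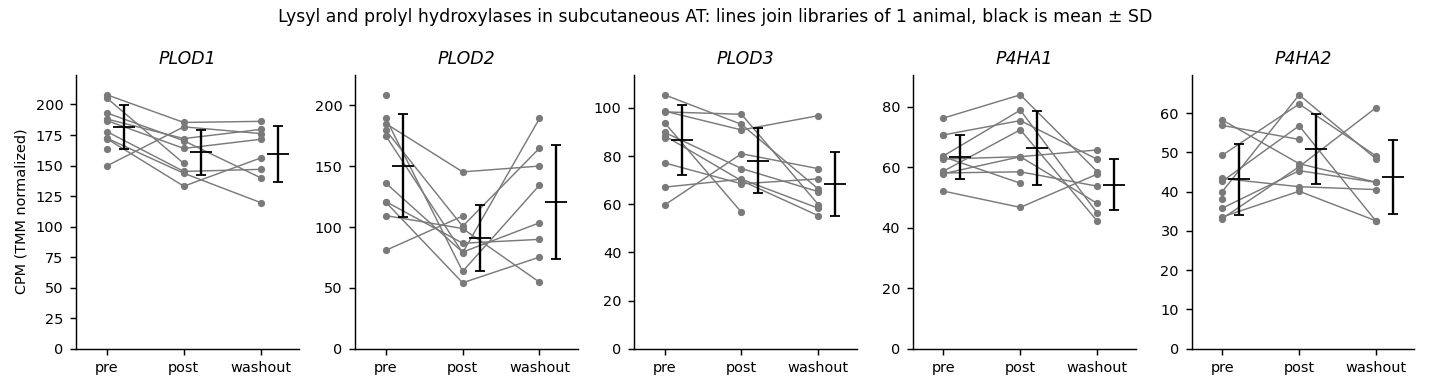
CPM (y axes, from 0) of the 3 lysyl hydroxylases and both prolyl hydroxylase subunits in each AT library by time point (x axes), with the libraries of 1 animal joined and the mean ± SD of each group in black. PLOD2 fell from a mean of 150.5 to 90.7 CPM post-treatment, and PLOD3 had means of 86.6, 78.0 and 68.4 CPM at the 3 time points.

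The substrates and partners of these enzymes did not share 1 direction in AT. Post-treatment, 3 of 12 measured collagen genes were called higher and 3 lower. The fibrillar collagen genes COL11A1 (log2 fold change 1.87 ± 0.57), COL1A1 (1.02 ± 0.30) and COL1A2 (0.81 ± 0.26) rose, with COL1A1 at a mean of 4010 ± 1833 CPM pre-treatment (SD, n = 10) and 7659 ± 3098 CPM post-treatment (n = 9). COL3A1 was at 0.57 ± 0.27 and was not called (adjusted p = 0.138, edgeR quasi-likelihood test). Also lower were the basement membrane collagens COL4A1 and COL4A2, named here after their values were seen because they encode a substrate of LOXL2, with log2 fold changes of -0.37 ± 0.12 and -0.47 ± 0.13. The basement membrane zone collagen COL15A1 fell by 0.67 on the log2 scale (SE 0.12).

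Of 12 other genes for collagen modification and folding, 2 were called lower and 1 higher post-treatment. P4HB, the partner of both prolyl hydroxylase subunits, had a mean of 1403 ± 181.9 CPM (SD) pre-treatment and 1010 ± 131.4 CPM post-treatment and fell by 0.49 on the log2 scale (SE 0.11, adjusted p = 0.0106, edgeR quasi-likelihood test). The collagen chaperone SERPINH1 fell by 0.40 (SE 0.11) and the prolyl isomerase FKBP10, which is needed for telopeptide lysyl hydroxylation, rose by 0.57 (SE 0.16). None of 8 procollagen processing genes was called, among them BMP1, the protease that also activates LOX. Of 10 elastic fibre and LOX partner genes only the microfibril gene MFAP2 was called, and it was higher by 0.82 (SE 0.14).

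Lists of genes for oxygen sensing and TGF-beta signalling, which are known to bear on transcription of these enzymes, were also mixed post-treatment. Of 15 genes of the hypoxia response and related 2-oxoglutarate dioxygenases, 3 were called higher and 2 lower. EGLN3, an oxygen-sensing prolyl hydroxylase, fell (-0.90 ± 0.13), whereas the secreted peptide gene ADM (0.75 ± 0.20), the histone demethylase gene KDM3A (0.61 ± 0.16) and HIF1A (0.57 ± 0.18) rose. In the TGF-beta list 1 of 13 genes was called higher (SMAD4, 0.27 ± 0.07) and 1 lower (SMAD3, -0.47 ± 0.15).

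Markers of cell types moved in AT between the same time points. Post-treatment, 3 of 5 adipocyte markers and 2 of 3 tendon markers were called lower, and 2 of 8 macrophage markers, 1 of 8 fibroblast and progenitor markers and 1 of 3 T cell markers were called higher. No marker of endothelial, mural or skeletal muscle fibre cells, nor either of the erythroid markers tested, was called. The summed adipocyte markers ranged from 22160 to 48650 CPM pre-treatment and from 14370 to 35910 CPM post-treatment. For macrophages the sums were 597.0 to 2256 and 888.5 to 5075 CPM, and for fibroblasts and progenitors 5963 to 14380 and 7274 to 16440 CPM. For the tendon list they were 20.2 to 87.9 and 10.6 to 35.1 CPM, and its gene TNMD reached at most 32.2 CPM in AT. Before treatment 2 of the 3 tendon markers were called lower in SM than in AT, so the list is not read as tendon content in AT. The part of the cell type markers in the changes of LOXL2, LOXL4 and PLOD2 was not tested.

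Sample identifiers in the labels fall into 3 number series, whose meaning is not given in the sources used here. Of the 9 animals, 8 had both libraries in the same series, and over these the mean log2 change was -1.02 for LOXL2 (lower in 8 of 8), -0.46 for LOXL4 (7 of 8) and -0.61 for PLOD2 (7 of 8).

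After treatment stopped, 4 members were called in AT at washout compared to post-treatment, 2 higher and 2 lower, where 35.4% of all genes tested were called (17.6% higher and 17.8% lower). This comparison and the one above share the post-treatment libraries, so a value that is low in those libraries enters both, and the values are given side by side with no test of their relation. LOXL2 rose from 23.2 to 88.2 CPM post-treatment to 84.7 to 161.6 CPM at washout, and 6 of the 8 washout libraries exceeded every post-treatment library. It was higher in 7 of 8 animals (log2 fold change 1.02 ± 0.16, adjusted p = 0.000101, edgeR quasi-likelihood test), animal 20275 being the exception at -0.04. LOXL4 ranged from 25.04 to 43.96 CPM at washout (median 34.2) and was also higher in 7 of 8 animals (0.62 ± 0.16, adjusted p = 0.00643, edgeR quasi-likelihood test), animal 23004 again standing apart.

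LOX and P4HA1 were called lower over the same interval. LOX measured 148.3 to 297.9 CPM at washout (median 206.5), a range that lies within that of the post-treatment libraries, and was lower in 6 of 8 animals (log2 fold change -0.56 ± 0.16, adjusted p = 0.0123, edgeR quasi-likelihood test). P4HA1 ranged from 46.7 to 83.9 CPM post-treatment (median 63.5) and from 42.3 to 65.7 CPM at washout (median 55.7), with 6 of 8 animals lower (-0.30 ± 0.10, adjusted p = 0.0239, edgeR quasi-likelihood test). When the 2 time points compared were fitted alone, LOX and P4HA1 were above the threshold (adjusted p = 0.0617 and 0.103), and without the animals in the model LOX was too (0.0612). P4HA1 was also above it with library size alone (0.0708) and without any one of animals 20275, 21189, 21866 and 22130 (0.0587 to 0.0918). PLOD2 was higher in 7 of 8 animals but not called (0.32 ± 0.19, adjusted p = 0.19), and it fell in animal 23004 by 0.85 on the log2 scale. Without that animal PLOD2 was called higher (0.48, adjusted p = 0.0408). LOXL1 (-0.45 ± 0.21), LOXL3 (0.18 ± 0.14), PLOD1 (-0.01 ± 0.08), PLOD3 (-0.20 ± 0.11) and P4HA2 (-0.19 ± 0.12) were not called. Only 3 animals had both libraries in 1 identifier series, and in these the mean log2 changes were 1.27 for LOXL2 and 0.68 for LOXL4 (both higher in 3 of 3) and -0.44 for P4HA1 (lower in 3 of 3). For LOX the changes were -1.38 in animal 21866, -0.13 in animal 20261 and 0.05 in animal 21189, so that the mean of -0.49 came mostly from 1 animal.

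The collagen genes moved down more often than up over this interval, with 5 of 12 called lower and 1 higher. COL6A3 (-1.79 ± 0.21), COL1A1 (-1.09 ± 0.31) and COL14A1 (-0.79 ± 0.24) fell and COL15A1 rose (0.83 ± 0.12), while COL3A1 was at -0.65 ± 0.28 (adjusted p = 0.0766, edgeR quasi-likelihood test). COL4A1 and COL4A2, called lower post-treatment, were not called higher over this interval. Of the other modification and folding genes 3 of 12 were called lower, FKBP10 (-0.65 ± 0.17), FKBP14 (-0.41 ± 0.11) and the prolyl 3-hydroxylase gene P3H2 (-0.39 ± 0.13), and P4HB was at 0.15 ± 0.12. Processing genes gave 1 higher (TLL2, 0.87 ± 0.29) and 1 lower (PCOLCE, -0.65 ± 0.20) of 8. In the elastic fibre and partner list 3 of 10 fell and 1 rose. The riser was FMOD (1.82 ± 0.42), a collagen-binding proteoglycan known to bring LOX to collagen, and POSTN (-1.46 ± 0.54), MFAP2 (-1.21 ± 0.15) and FBN1 (-0.61 ± 0.21) fell.

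In the hypoxia list 3 of 15 genes rose and 4 fell at washout compared to post-treatment, led by VEGFA (1.07 ± 0.18), ANKRD37 (0.72 ± 0.18), EGLN3 (0.69 ± 0.14) and ADM (-0.61 ± 0.21). Of 13 TGF-beta genes 5 fell and 0 rose. TGFBI (-0.77 ± 0.16), TGFB1 (-0.71 ± 0.24) and TGFBR1 (-0.60 ± 0.18) were among those that fell. The lowest log2 fold change in the list was -1.29, in a gene not named here. All 8 macrophage markers and 2 of 8 fibroblast and progenitor markers were called lower, as was 1 of 3 T cell markers. Markers called higher were 2 of 4 mural, 2 of 3 tendon, both tested erythroid, 1 of 4 endothelial and 1 of 5 adipocyte genes, and none of 7 muscle fibre markers was called. The macrophage sum ranged from 370.2 to 2078 CPM at washout and the fibroblast and progenitor sum from 5058 to 13850 CPM. Their part in the changes of LOX, LOXL2, LOXL4 and P4HA1 was not tested.

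At washout compared to pre-treatment, 1 member was called in AT, where 20.5% of all genes tested were called (12.5% higher and 7.96% lower). It was PLOD3, which encodes a lysyl hydroxylase that also adds sugars to hydroxylysine. PLOD3 measured 59.7 to 105.4 CPM pre-treatment (median 89.1), 56.7 to 97.3 CPM post-treatment (median 74.8) and 55.2 to 96.8 CPM at washout (median 65.8). The groups overlapped, 7 of 8 animals were lower at washout, and the fitted log2 fold change was -0.36 ± 0.11 (adjusted p = 0.0283, edgeR quasi-likelihood test). The call was lost without any one of animals 20261, 20275, 21189 and 26292 (adjusted p = 0.0726 to 0.0928), and it was also lost when library size alone replaced TMM (-0.25, adjusted p = 0.113), when the identifier series was in the model (0.0581) and when the 2 time points were fitted alone (0.0576). LOXL2 was at 0.05 ± 0.16, LOXL4 at 0.10 ± 0.16 and LOX at -0.12 ± 0.16, each with animals on both sides of 0. All 3 lysyl hydroxylases had values below 0, with PLOD1 at -0.21 ± 0.08 and PLOD2 at -0.33 ± 0.18, and each was lower in 7 of 8 animals. PLOD2 was called with the identifier series in the model (-0.50, adjusted p = 0.0312) and with the 2 time points fitted alone (-0.41, adjusted p = 0.0136). Animal 24849 was the exception for PLOD1, PLOD2 and PLOD3 alike, and without it PLOD1 and P4HA1 were also called lower. In the 4 animals with both libraries in 1 series PLOD3 was lower in 4 of 4, by a mean of -0.42 on the log2 scale.

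Among the substrates 1 of 12 collagen genes was called lower (COL6A3, -1.27 ± 0.21), 8 of the 12 had values below 0, and COL1A1 and COL3A1 were at -0.08 ± 0.30 and -0.07 ± 0.28. P4HB (-0.34 ± 0.12) and FKBP14 (-0.52 ± 0.11) were the 2 genes of 12 called lower in the modification and folding list, where 11 had values below 0 (median -0.15). BMP1 (0.31 ± 0.08) and TLL1 (0.45 ± 0.15), which encode related procollagen proteases, were the 2 higher genes of 8 in the processing list. FMOD was again higher (1.27 ± 0.39), 1 of 10 in its list, and VEGFA was the 1 of 15 called in the hypoxia list (0.74 ± 0.18). In the TGF-beta list SMAD2 was lower (-0.31 ± 0.07), 1 of 13. Macrophage markers were called lower in 5 of 8 cases, and their part in the PLOD3 change was not tested.

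**Figure D3:**
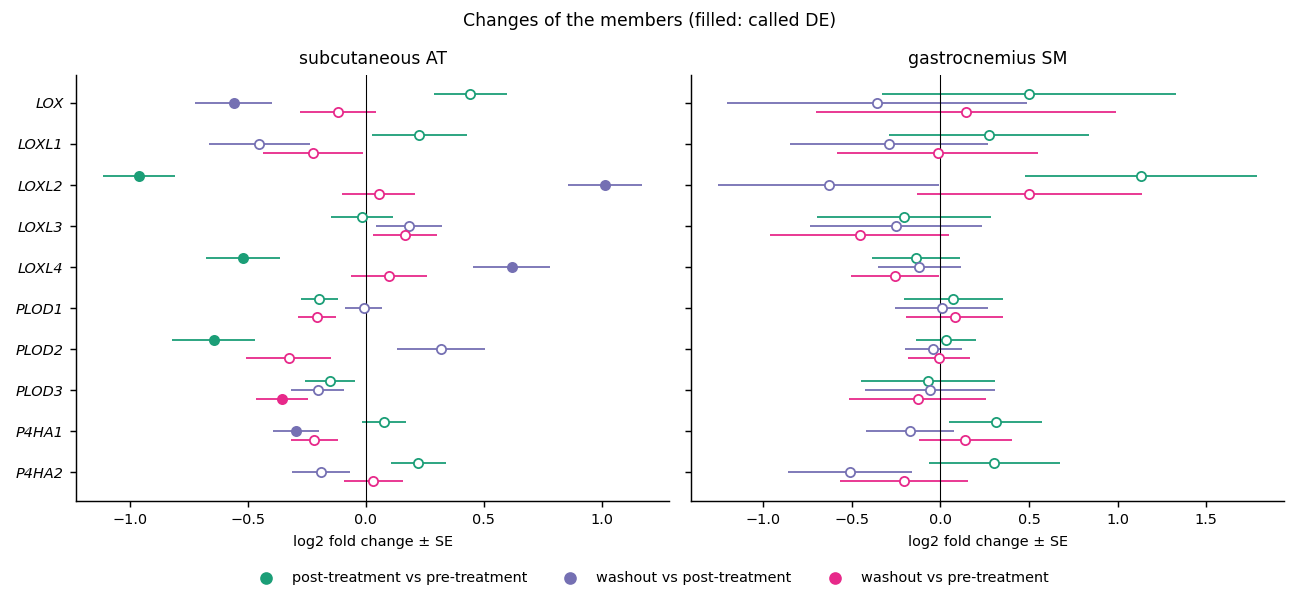
Log2 fold change ± SE (x axes) of the 10 members (y axis) in AT (left) and SM (right) for the 3 comparisons, shown by colour, with filled points for members called DE. In AT 3, 4 and 1 members were called. In SM none was called and the SEs reached 0.85.

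In SM, no member was called in any of the 3 comparisons. Post-treatment compared to pre-treatment, 0 of the 12617 genes tested were called (0%), 24 genes or 0.19% at washout compared to post-treatment (0.182% higher and 0.00793% lower), and 8 genes or 0.0634% at washout compared to pre-treatment, all of them higher. These shares belong to the edgeR test. For the last comparison the paper reported far more DE genes in SM, in both directions, using limma with voomWithQualityWeights. At an unadjusted p under 0.05 the edgeR quasi-likelihood test gave 0 members in each comparison, against 410, 2181 and 1691 of all genes. DESeq2 and voomWithQualityWeights also called 0 members. Members' log2 fold changes ranged from -0.21 to 1.13 post-treatment, from -0.63 to 0.01 at washout compared to post-treatment and from -0.46 to 0.50 at washout compared to pre-treatment. The SEs ranged from 0.16 for PLOD2 to 0.85 for LOX, against 0.08 to 0.21 in AT. For LOXL2 the SE was 0.66 post-treatment, so that a change of the size seen in AT was not detectable in SM at this spread.

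The SM levels differed most between animals in the post-treatment libraries. LOX measured 5.0 to 46.4 CPM pre-treatment (median 10.6), 2.5 to 90.4 CPM post-treatment (median 25.4) and 3.6 to 41.8 CPM at washout (median 11.1). Post-treatment the libraries lay in separate ranges: animals 21189, 21866, 24849 and 20275 had 90.4, 74.5, 46.3 and 44.7 CPM, and the other 4 had 2.5 to 6.1 CPM. LOXL2 set the same 4 animals apart, though in another order below animal 21189. It had 110.5 CPM in animal 21189, 19.1 to 21.8 CPM in the other 3 and 3.0 to 4.0 CPM in the remaining 4. Its range was 3.4 to 8.4 CPM pre-treatment and 3.9 to 14.3 CPM at washout. The same 4 animals held the 4 highest post-treatment levels of 8 of the 10 members, all but PLOD2 and P4HA1. The gap was small for some of the 8. The lowest of the 4 animals and the highest of the others had 10.04 and 8.06 CPM of LOXL4. For PLOD1 these values were 39.48 and 34.46 CPM, and for P4HA2 21.55 and 19.83 CPM. The share of all genes that separate these animals was not counted, so the count is not read as particular to the members.

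**Figure D4:**
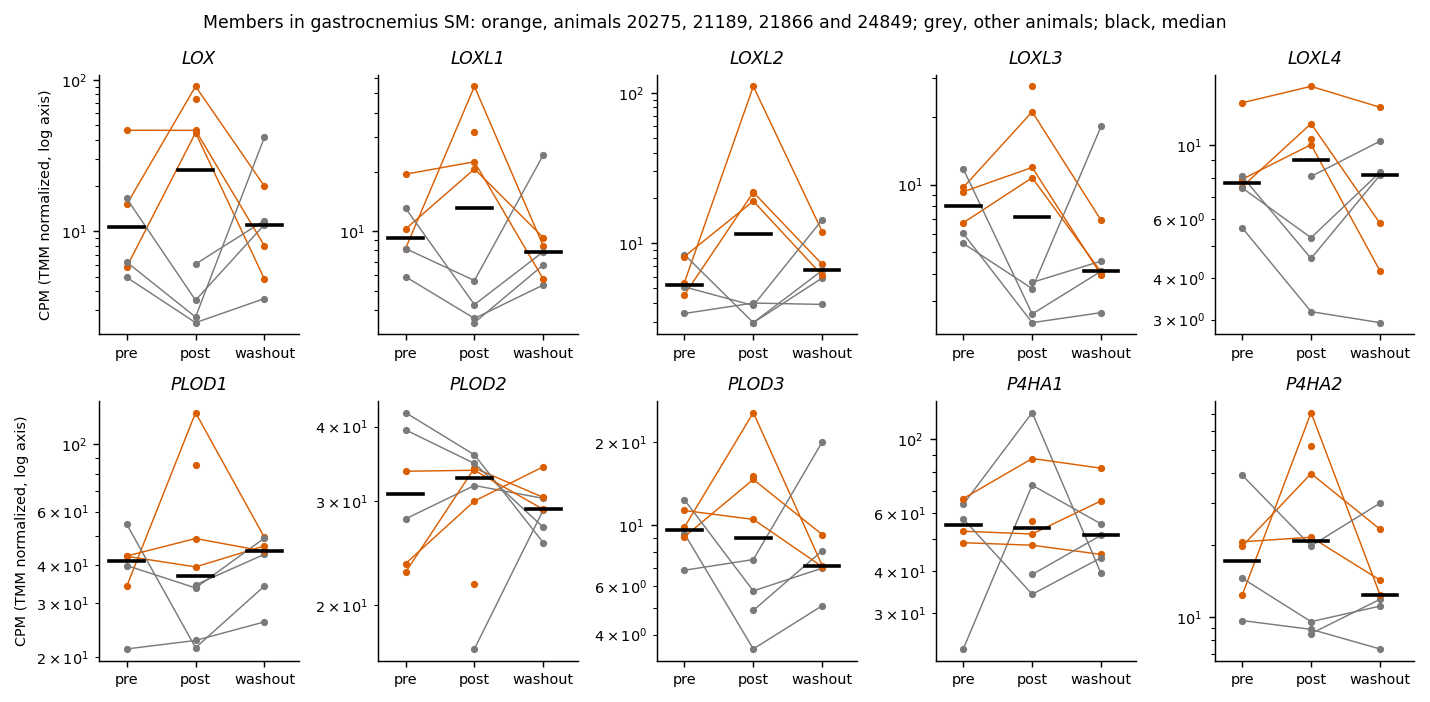
CPM (y axes, log scale) of the 10 members in each SM library by time point (x axes), with the libraries of 1 animal joined, animals 20275, 21189, 21866 and 24849 in orange, the others in grey and group medians in black. Post-treatment the 4 orange animals lay above the grey ones for 8 members, with LOX at 44.7 CPM or more against 6.1 CPM or less, but not for PLOD2 and P4HA1. The gap was small for LOXL4, PLOD1 and P4HA2.

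Across all 21 SM libraries the highest LOX level was 36.3 times the lowest and the highest LOXL2 level 37.3 times, against 3.98 and 6.96 times across the 27 AT libraries. PLOD2 was the exception, with a ratio of 2.5 in SM and 3.85 in AT, and in SM it ranged from 22.7 to 42.2 CPM pre-treatment, 16.9 to 35.9 CPM post-treatment and 25.5 to 34.2 CPM at washout. P4HA1 was highest post-treatment in animal 23004 at 120.5 CPM, an animal with 3.5 CPM of LOX in the same library. Other highest-to-lowest ratios in SM were 15.8 for LOXL1, 11.4 for LOXL3, 9.66 for P4HA2, 7.22 for PLOD3, 5.98 for PLOD1, 5.17 for P4HA1 and 5.12 for LOXL4.

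The 4 post-treatment SM libraries with high LOX also held more RNA of collagens and of connective tissue markers. The 12 collagen genes summed to 4889 to 26160 CPM in them and to 256.4 to 518.0 CPM in the other 4. The 8 fibroblast and progenitor markers summed to 2285 to 4685 against 249.5 to 425.5 CPM, the 3 tendon markers to 184.4 to 1571 against 5.1 to 13.8 CPM, and the 8 macrophage markers to 120.4 to 181.9 against 17.98 to 29.74 CPM. Of the tendon markers THBS4 reached 1533 CPM over the SM libraries and TNMD at most 73.8 CPM. The 4 endothelial markers did not separate the libraries, at 83.2 to 159.5 against 89.45 to 156.2 CPM. The 7 muscle fibre markers went the other way, with 35810 to 80000 CPM against 121800 to 141400 CPM, and the 5 adipocyte markers summed to 120.0 to 1608 CPM against 143.9 to 434.1 CPM. High sums were not confined to the post-treatment libraries. Pre-treatment, animal 24849 had 5179 CPM of collagens and 2661 CPM of fibroblast and progenitor markers. At washout, animal 22130 had 4588 and 2743 CPM. The tendon sum of animal 21189 was 297 CPM pre-treatment and 591.1 CPM at washout. Of the 4 post-treatment libraries with high LOX, 3 carried identifiers of the last series. That of animal 20275 carried an identifier of the first, which also covered the 4 low libraries. As only 1 animal had its pre- and post-treatment SM libraries in the same series, no within-series comparison was made. With the series in the model the count of members called stayed at 0, and the part of the markers and of the series in the levels was not tested.

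The difference between the tissues was tested as an interaction, the log2 change in SM minus that in AT. Post-treatment compared to pre-treatment 0 of 10 members differed at an adjusted p under 0.05, where 0.0487% of 12322 genes did. LOXL2 had the largest value, 2.11 ± 0.59 (adjusted p = 0.168, edgeR quasi-likelihood test), made up of -0.96 in AT and 1.13 in SM in the separate fits. PLOD2 followed with 0.73 ± 0.26 (adjusted p = 0.298). LOXL2 in SM was higher post-treatment in 4 of 6 animals, with a median log2 change of 0.72 and a highest change of 4.31 in animal 21189. With 1 animal left out its interaction value ranged from 1.32 to 2.62 and was not called. At washout compared to post-treatment 1 member differed, where 22.7% of all genes did (10.8% higher and 11.9% lower). It was again LOXL2, at -1.61 ± 0.58 (adjusted p = 0.0447, edgeR quasi-likelihood test), and LOXL4 was at -0.73 ± 0.28 (0.0623). Leaving out the post-treatment SM library of animal 21189 changed the LOXL2 value to -0.95 and its adjusted p to 0.134, so that the call was lost without that library. The call was also lost without any one of animals 19832, 20261, 20275, 21866, 24849 and 26292 (adjusted p = 0.0524 to 0.158). At washout compared to pre-treatment 0 members differed, where 17.5% of all genes did (8.38% higher and 9.13% lower), and the members' values ranged from -0.58 to 0.50.

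Before treatment, 8 members were called lower in SM than in AT, 1 higher and 1 neither, where 77.7% of all genes tested were called (42.1% lower and 35.5% higher). For this comparison the CPM were normalized over both tissues together, since the CPM above were scaled within each tissue. LOX ranged from 102.3 to 299.5 CPM in AT (median 163.7) and from 6.4 to 63.8 CPM in SM (median 14.7), with no overlap, a 9.91-fold difference (log2 fold change -3.31 ± 0.64, adjusted p = 1.96e-05, edgeR quasi-likelihood test). LOXL2 ranged from 46.0 to 103.8 CPM in AT (median 75.5) and from 4.4 to 11.4 CPM in SM (median 7.3), a 9.51-fold difference (-3.25 ± 0.49, adjusted p = 2.39e-07, edgeR quasi-likelihood test). PLOD3 was 5.25-fold lower in SM, with 46.5 to 80.8 CPM in AT and 9.4 to 16.7 CPM in SM. With library size alone the log2 fold changes were -4.07 for LOX, -3.98 for LOXL2 and -3.15 for PLOD3, a scaling under which the median of all genes moved from -0.16 to -0.90. LOX was at -3.98 without animal 24849, and LOXL2 at -2.59 with the identifier series in the model.

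The remaining members lower in SM were LOXL1 (log2 fold change -1.69 ± 0.45), PLOD1 (-1.44 ± 0.22), PLOD2 (-1.37 ± 0.21), LOXL4 (-1.15 ± 0.25) and LOXL3 (-0.86 ± 0.37). LOXL1, PLOD1 and PLOD2 did not overlap between the tissues, and LOXL3 and LOXL4 did. P4HA2 overlapped and was not called (-0.44 ± 0.31, adjusted p = 0.191), but it was called lower with library size alone (-1.21, adjusted p = 0.00442). P4HA1 differed from all the others in direction, with 40.6 to 59.2 CPM in AT (median 49.6) and 30.2 to 91.3 CPM in SM (median 76.3). Its log2 fold change was 0.46 ± 0.20 (adjusted p = 0.0334, edgeR quasi-likelihood test), but it was -0.30 with library size alone, where the median of all genes was -0.90. The call for P4HA1 was also lost with the identifier series in the model (adjusted p = 0.238), with the pre-treatment libraries alone (0.0791) and without any one of animals 21189, 22130, 23004 and 24849 (0.0504 to 0.112). That for LOXL3 was lost with the series (-0.33, adjusted p = 0.444) and without any one of animals 19832, 20275, 21189 and 24849 (0.065 to 0.0849). P4HB (-1.92 ± 0.17), COL1A1 (-3.32 ± 0.94) and COL3A1 (-3.34 ± 0.83) were lower in SM.

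**Figure D5:**
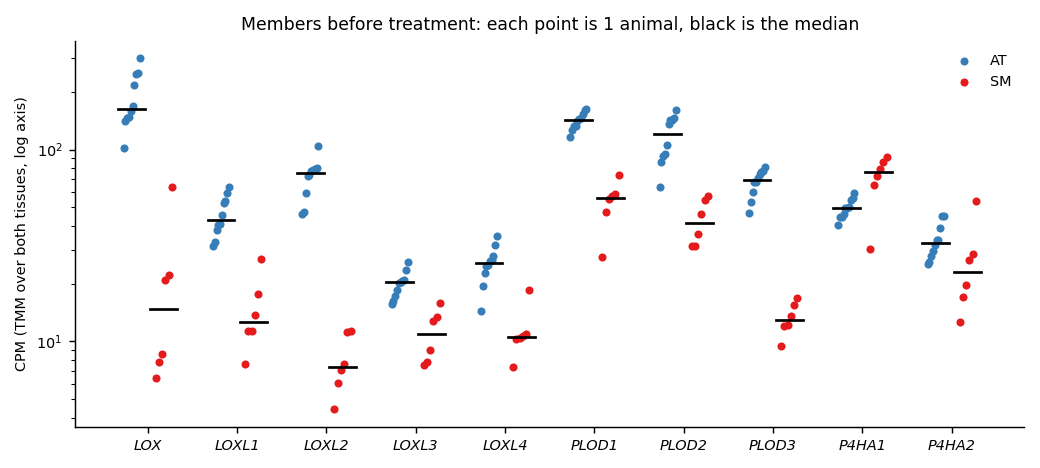
CPM normalized over both tissues (y axis, log scale) of the 10 members before treatment (x axis), in AT (blue, 10 animals) and SM (red, 6 animals), with 1 point per animal and the median in black. LOX and LOXL2 lie lower in SM without overlap (9.91-fold and 9.51-fold under this scaling, more with library size alone), and P4HA1 has the higher median in SM, 76.3 against 49.6 CPM.

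The members varied together to different degrees within the tissues. After the mean of each animal was taken out of log2 CPM, LOX correlated with LOXL1 at r = 0.926 and with LOXL3 at 0.892 across the 21 SM libraries, and PLOD3 with LOXL3 at 0.900. In the same libraries P4HA1 had r = -0.207 with LOX and PLOD2 had 0.106. Across the 27 AT libraries LOX and LOXL2 were at -0.557, LOXL4 with PLOD2 at 0.691, LOXL2 with LOXL4 at 0.645, and LOX with P4HA1 at 0.631. These values describe libraries that share time points, normalization and cell content, and they carry no test.

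Each member's most similar other gene by the same measure, among 13357 genes in AT and 12607 in SM, also differed between the tissues. In AT they were SMURF2 for LOX (r = 0.886), MXRA5 for LOXL1 (0.899), TP53INP2 for LOXL2 (0.905), DACT1 for LOXL3 (0.792), TMEM143 for LOXL4 (0.927), SLC35A4 for PLOD1 (0.901), ANGPT1 for PLOD2 (0.949), MCM2 for PLOD3 (0.925), RALA for P4HA1 (0.859) and TPPP3 for P4HA2 (0.879). In SM they were LUM for LOX (0.977), SERPINH1 for LOXL1 (0.986), FREM1 for LOXL2 (0.951), MICAL1 for LOXL3 (0.976), MCM3 for LOXL4 (0.919), C5orf42 for PLOD1 (0.913), IL1B for PLOD2 (0.748), TCTN2 for PLOD3 (0.963), MLLT3 for P4HA1 (0.863) and MMP11 for P4HA2 (0.952). LUM and SERPINH1, a small collagen-binding proteoglycan and the collagen chaperone, are genes of fibroblasts and matrix-producing cells. The rest of the SM list, with MCM3, IL1B and MLLT3 among them, was not sorted by cell type. No gene was the most similar for the same member in both tissues.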

How the data were processed

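RNA from the biopsies was made into stranded mRNA libraries and sequenced in pairs of 50 nt reads. The authors mapped them to the MacaM genome using STAR and deposited raw counts per gene under human symbols and Ensembl identifiers. The labels list 51 samples, and the 3 SM samples among them without a column of counts are not analysed here. Of 16103 entries, 70 that repeated a gene were dropped. Total counts per library had a median of 18578869. Gene positions and sequences were not used here.

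Genes reaching 0.5 CPM in 10% or more of a tissue's libraries entered the tests, run in edgeR 4.0.16 in R 4.3.3 (TMM, robust quasi-likelihood F-test, two-sided, time point and animal in the model, Benjamini-Hochberg adjustment over all genes tested). The interaction used animals within tissue, and the tissue contrast group and animal. Replicates are separate animals. Same-animal libraries correlated after removal of time point means (median r 0.352 over 25 AT pairs and 0.279 over 19 SM pairs, against -0.0354 and -0.0464 for other pairs), so the animal, shared by design, was kept in the model. The edgeR fits give no SE directly, so each SE printed is the absolute log2 fold change divided by the square root of the F statistic. Correlations used log2 CPM with a prior count of 2.

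The named genes were the 10 members, P4HB, COL1A1, COL3A1, in each list and comparison up to 4 called genes with the largest change, and the most similar gene of each member. Of the genes this rule gives, not all are reported here. COL4A1, COL4A2, BMP1 post-treatment and the tissue markers ADIPOQ, PLIN1, ACTA1 and TNMD were named outside it. The members and lists were chosen with earlier results of these data known. The fit was tested on simulated data. Alternatives were DESeq2 1.42.0, voomWithQualityWeights of limma 3.58.1 (the study's test), library size alone, other filters, a model without the animals, a fit of the compared time points alone, the identifier series as covariate, no fold change limit, the pre-treatment AT library of animal 20275 left out, and each animal left out. The earlier quasi-likelihood method of edgeR and the omission of the post-treatment SM library of animal 21189 were added after seeing the data. matplotlib 3.10.9 drew the figures.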

Additional observations from a re-analysis of the deposited data

Results flagged for a closer look

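In 10 of 60 groups of libraries (10 members, 2 tissues, 3 time points) the highest library stood apart from the others by Dixon's criterion. The criterion assumes normally distributed values, for which chance gives about 1 such group of 20. It was applied to CPM without a log transform, and that rate was not shown to hold for them. In SM at washout, animal 22130 stood apart for LOX (41.8 CPM), LOXL1 (24.4 CPM), LOXL3 (18.2 CPM) and PLOD3 (20.0 CPM). In SM pre-treatment, animal 24849 stood apart for LOX (46.4 CPM) and LOXL4 (13.4 CPM), and animal 22130 for P4HA2 (39.1 CPM). In SM post-treatment, LOXL2 in animal 21189 was at 110.5 CPM. In AT at washout, animal 22130 stood apart for LOXL2 (161.6 CPM) and animal 23004 for PLOD3 (96.8 CPM). Values within 1 library are not independent, as the members vary together in SM.

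The change of LOXL2 at washout compared to post-treatment differed between the tissues (log2 change in SM minus AT of -1.61, adjusted p = 0.0447, edgeR quasi-likelihood test). The call was lost with any one of 7 of the 10 animals left out, and without the post-treatment SM library of animal 21189 the value was -0.95 (adjusted p = 0.134). In AT LOXL2 was higher in 7 of 8 animals, and the value in SM was -0.63 ± 0.62.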

How the results depend on the processing

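The counts of members called in SM stayed at 0 in every alternative run, the contrast of levels between the tissues had 7 to 9 calls (9 as reported), and LOXL2 in AT was called post-treatment and at washout compared to post-treatment in every alternative and with any animal left out. Of 404 values of single members under other alternatives 371 kept direction and side of the threshold, 15 lost and 12 gained a call and 6 reversed, and of 440 with an animal left out the numbers were 395, 29, 8 and 8. Without the animal as a replicate block the AT counts were 2 post-treatment compared to pre-treatment, 3 at washout compared to post-treatment and 1 at washout compared to pre-treatment (3, 4 and 1 with it), LOXL4 and LOX losing their calls.

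The AT count at washout compared to pre-treatment was 0 with library size alone, that at washout compared to post-treatment 2 with only those time points fitted (LOXL2 and LOXL4), and that post-treatment 1 without the pre-treatment library of animal 20275 (LOXL2). The interaction count post-treatment was 1 with DESeq2 and with the identifier series (LOXL2). At washout compared to post-treatment it was 2 with DESeq2, library size alone and the series (LOXL2 and LOXL4) and 0 without the post-treatment SM library of animal 21189, and at washout compared to pre-treatment it was 1 with the series (PLOD2). With 1 animal left out the AT counts ranged from 1 to 4, 3 to 6 and 0 to 3 in the order above, and the interaction at washout compared to post-treatment from 0 to 2. The AT post-treatment count was 1 without 20275 or 22130, and the interaction count 0 without 19832, 20261, 20275, 21189, 21866, 24849 or 26292. At washout compared to pre-treatment the AT count was 3 without 24849.

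Reversed values were close to 0 except P4HA1 in SM compared to AT (-0.30 with library size alone). PLOD1 at washout compared to post-treatment was -0.01 and became 0.0040 with DESeq2, 0.065 with library size alone, 0.0021 with at least 10 counts in every library and 0.0161 with the series, and -0.0538 to 0.0401 with an animal left out. LOXL3 post-treatment was -0.02 and became 0.0187 with library size alone and -0.103 to 0.049 with an animal left out, and P4HA2 at washout compared to pre-treatment ranged from -0.109 to 0.0894. The causes were not tested. In SM, members had as few as 32 counts in a library.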
